A study of Mus musculus with 2 samples.

Results

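The 10 genes described here are early response genes of activated leukocytes: the zinc finger factors Egr1, Egr2 and Egr3, the orphan nuclear receptors Nr4a1, Nr4a2 and Nr4a3, and Nfkbid, Dusp2, Bhlhe40 and Cd69. They were taken by gene symbol and are 10 of the 31253 genes counted in both libraries. They were chosen by family and by ratios of Vsig4 KO over WT levels in these same libraries, known from earlier work on them, so the ratios below are a description. The cells were live (DAPI-negative) CD45+ single cells sorted from mouse livers carrying metastases of B16F10, a melanoma line, and profiled with 10x Genomics 5′ single-cell RNA sequencing. Livers came from Vsig4-/- mice (Vsig4 KO), which lack a complement receptor of Kupffer cells, and were set against livers from WT mice that bore the same tumours. Each genotype was 1 library, and the labels used here give neither the number nor the age of the mice behind a library. With no replicates, no test was possible and no p-value is given. Every interval below is a 95% interval of counting error only and covers neither mice nor libraries.

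As background, EGR and NR4A genes are transcribed within minutes of antigen receptor, cytokine or pattern receptor signalling, through MAP kinases, calcium and cAMP, without prior protein synthesis. In mouse T and B cells Nr4a1 (Nur77) is widely read as a record of recent antigen receptor signalling, and EGR2 and EGR3 both follow and restrain that signalling. EGR factors also drive Zbtb16 in developing mouse NKT cells, and Nr4a1 is needed for the Ly6C-low monocytes of mice. Nfkbid encodes a nuclear IκB protein, Dusp2 a phosphatase of MAP kinases, Bhlhe40 a helix-loop-helix repressor that permits cytokine production in T cells, and Cd69 a lectin that holds lymphocytes in tissue by blocking S1PR1.

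The promoters of the NR4A genes are shown because these genes share a dense set of one motif that the choice of the genes did not use. Windows of 250 bases before to 50 bases after a start site were used for 6 of the 10 genes, from RefSeq on GRCm38.p6. No window of the other genes was used, so their motifs are not described here. Egr2 had 5 windows, of which the last is shown, Nfkbid had 3 and Dusp2 had 1, and those of Nfkbid and Dusp2 are not printed. Capitals mark TGACG, the core of the cAMP response element, read on either strand (as CGTCA on the other), GCGNGGGCG (the EGR motif, either strand) and the CArG box bound by SRF. No marked motifs overlap. The windows, 5′ to 3′ on the strand of the gene, were as follows.
Nr4a1 (chr15:101266596-101266895, plus strand): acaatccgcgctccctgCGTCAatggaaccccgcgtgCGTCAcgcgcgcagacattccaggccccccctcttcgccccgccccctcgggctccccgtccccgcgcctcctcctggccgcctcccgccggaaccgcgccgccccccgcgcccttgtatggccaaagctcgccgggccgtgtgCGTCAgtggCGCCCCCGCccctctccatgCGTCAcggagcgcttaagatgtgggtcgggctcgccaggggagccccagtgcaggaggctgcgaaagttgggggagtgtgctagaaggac
Nr4a2 (chr2:57123954-57124253, minus strand): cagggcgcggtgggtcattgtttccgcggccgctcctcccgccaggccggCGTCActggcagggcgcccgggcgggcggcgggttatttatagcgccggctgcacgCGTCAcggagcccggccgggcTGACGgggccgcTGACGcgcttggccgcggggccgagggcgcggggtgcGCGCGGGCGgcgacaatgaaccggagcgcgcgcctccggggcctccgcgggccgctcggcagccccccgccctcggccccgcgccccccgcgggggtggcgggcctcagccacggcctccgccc
Nr4a3 (chr4:48045055-48045354, plus strand): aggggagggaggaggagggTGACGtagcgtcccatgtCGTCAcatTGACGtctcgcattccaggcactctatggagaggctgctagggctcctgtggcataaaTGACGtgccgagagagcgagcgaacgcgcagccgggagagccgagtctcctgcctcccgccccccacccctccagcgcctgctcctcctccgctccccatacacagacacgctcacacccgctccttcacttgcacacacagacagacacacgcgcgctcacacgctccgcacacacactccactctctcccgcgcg
Egr2 (chr10:67537680-67537979, plus strand): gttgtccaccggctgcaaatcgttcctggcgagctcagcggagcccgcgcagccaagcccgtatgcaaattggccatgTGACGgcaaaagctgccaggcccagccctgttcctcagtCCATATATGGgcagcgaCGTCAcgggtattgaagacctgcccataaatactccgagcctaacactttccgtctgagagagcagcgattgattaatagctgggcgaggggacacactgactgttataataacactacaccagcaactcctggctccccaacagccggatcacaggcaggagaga
Each NR4A window held 4 TGACG sites. Of 32851 mouse windows of the same length, 20.8% held at least 1 such site and 76 (0.231%) held at least 4. The Nr4a1 and Nr4a2 windows each held 1 EGR motif, which 5.55% of all windows did, and none of the NR4A windows held a CArG box. The Egr2 window held 2 TGACG sites and 1 CArG box, which 1.63% of all windows did. None of the 4 printed windows held the whole element TGACGTCA (1.79% of all windows) or the AP-1 motif TGANTCA (7.81%), and an NF-κB motif (8.46%), not in capitals, was found among them once, in the Nr4a1 window. Of the windows not printed, 1 of Nfkbid held the whole element and 2 NF-κB motifs, another of Egr2 held 2 NF-κB motifs, and that of Dusp2 held 1 TGACG site and 1 EGR motif. On GENCODE M21 the Nr4a2 gene runs from 57106830 to 57124003 of mm10 chromosome 2, so its window holds the first 50 bases of the gene. The Nr4a1 window lies inside the annotated gene, which starts at 101254269, and the Nr4a3 window crosses the annotated start at 48045153. A match to letters is a description and shows no binding in these cells.

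The Vsig4 KO library held 5799 barcodes with 25119175 UMIs (counted RNA molecules) and the WT library 6929 barcodes with 28537154 UMIs. After filters 5482 Vsig4 KO and 6494 WT cells were kept, with medians of 3260 and 3034 UMIs. Vsig4 itself had 3 UMIs in Vsig4 KO and 43 in WT cells. Both libraries shared 54 barcode sequences, and leaving them out moved no count of the 10 genes past 1.5-fold by more than 1.5 times. Cells were placed in 13 gates by raw UMIs of marker genes, none of which was among the 10. Together the gates took 65.8% of the Vsig4 KO and 59.3% of the WT cells. Levels are UMIs summed over a gate and scaled to a fixed total (CPM), and a ratio is Vsig4 KO over WT. A gene was measured in a gate where it had at least 20 UMIs over both libraries, and ratios were summarised in the 11 gates with at least 30 cells in each library.

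The 10 genes did not differ alike in all gates. They were mostly higher in Vsig4 KO T, NKT, NK and conventional dendritic cells, mixed to lower in B cells, and lower in mature dendritic cells. In the CD4 T gate 6 of 9 measured genes were at least 1.5-fold higher and 0 lower, where 7.81% of all 8400 measured genes were higher and 9.77% lower. The median log2 ratio of the 9 was 0.68, against -0.02 over all measured genes. In the NKT gate 4 of 8 were higher and 1 lower (all genes: 9.83% and 11.8%), with a median of 0.49 against -0.04. The CD8 T gate had 3 of 10 higher and 0 lower (6.60% and 6.0%; median 0.45), and the NK gate 1 of 8 higher and 0 lower (7.66% and 8.04%; median 0.45). In regulatory T cells 2 of 8 were higher and 0 lower (14.1% and 15.2%; median 0.17), a share close to the background. In the B gate 1 of 10 was higher and 3 lower (6.70% and 4.47%; median -0.18).

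Among myeloid gates, cDC2 cells had 4 of 9 genes higher and 0 lower (8.54% and 10.7%; median 0.51). Plasmacytoid dendritic cells (pDC) had 3 of 8 higher and 0 lower (8.46% and 8.09%; median 0.31), and classical monocytes 3 of 9 higher and 0 lower (8.92% and 12.0%; median 0.34). In cDC1 cells 7 of 9 were higher and 0 lower (12.5% and 9.73%; median 0.80), but only 1 was higher once every cell was thinned to 1000 UMIs, with a median of 0.22. In mature dendritic cells 0 of 7 were higher and 5 lower (14.1% and 13.3%, median -0.66). After thinning 0 were lower and the median was 0.03, again over fewer genes. Egr1, among those left out, was then found in 0 of 45 Vsig4 KO and 2 of 49 WT cells. These 2 gates held 50 and 47 Vsig4 KO cells and 84 and 50 WT cells, so their values rest on few cells.

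**Figure D1:**
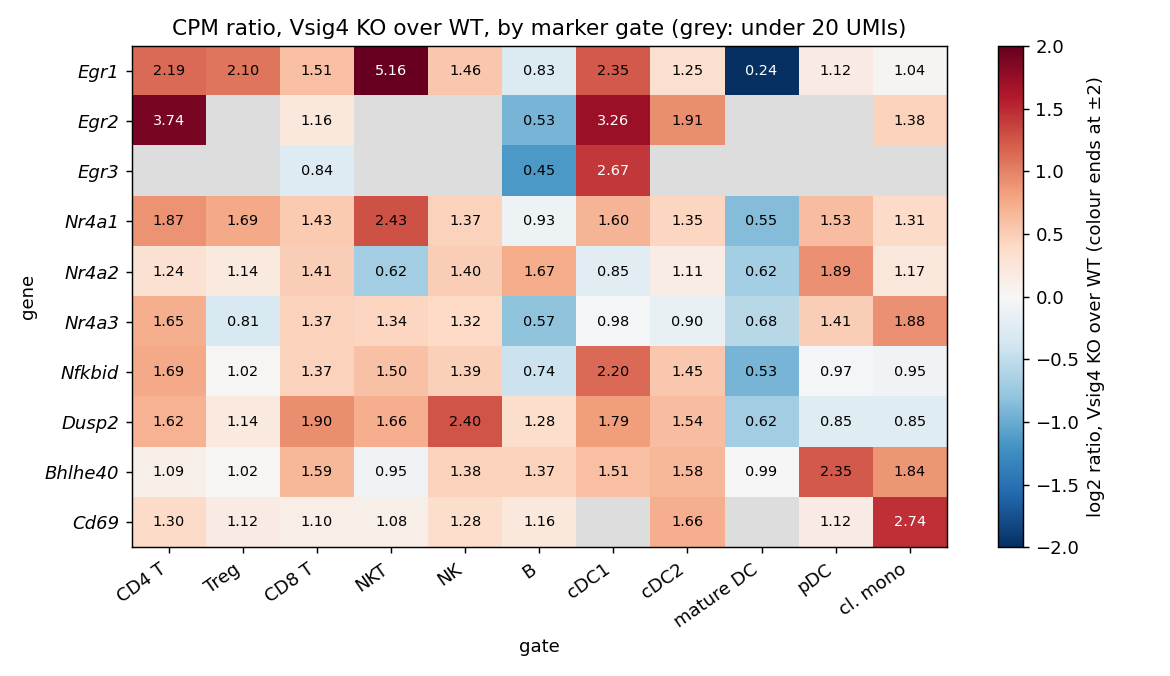
Ratio of CPM, Vsig4 KO over WT, for each of the 10 genes (rows) in the 11 gates with at least 30 cells in each library (columns), with colour on a log2 scale and the ratio written in each cell; empty cells had fewer than 20 UMIs. Egr1 in NKT cells (5.16) stands out among the higher values, and the mature DC column and the Egr3 and Nr4a3 values of B cells (0.450 and 0.572) among the lower ones.

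Egr1, a zinc finger activator, showed its widest difference in NKT cells. It had 715 UMIs in 252 Vsig4 KO and 84 UMIs in 173 WT NKT cells, so levels were 662 CPM (615 to 713) against 128 CPM (102 to 159) and the ratio 5.16 (4.11 to 6.54). With every cell thinned to 1000 UMIs the ratio was 8.04. Egr1 was found in 107 Vsig4 KO and 25 WT NKT cells before thinning, and in 28.0% (22.5 to 34.1) and 7.69% (4.16 to 12.8) after it. Among pDC, a cell type with little Egr1, it was found in 4.38% of Vsig4 KO and 4.66% of WT cells before thinning, and after it in 0 of 158 Vsig4 KO cells (interval up to 2.31%) and 0.424% of WT cells (median depths 7266 and 5748 UMIs, against 4134 and 3608 in NKT cells). The Vsig4 KO UMIs were spread over more cells: the 13 NKT cells with most Egr1 held 47.0% of them, while 9 WT cells held 77.4%. By Egr1 level the NKT gate was first of the 13 in Vsig4 KO, ahead of B cells at 223 CPM. In WT cells the B gate was highest at 269 CPM, and NKT cells came after non-classical monocytes at 138 CPM with overlapping intervals. RNA of other cell types was low in the NKT gate: 6 B cell genes summed to 110.3 CPM in Vsig4 KO and 104 CPM in WT cells, and 8 myeloid genes to 229.8 and 154 CPM. The part of that RNA in the Egr1 difference was not tested.

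Egr1 was also higher in CD4 T cells, at 167 CPM in Vsig4 KO and 76.3 CPM in WT (ratio 2.19, 1.69 to 2.87). The lowest ratio there over the alternative settings was 1.60. After thinning 8.36% (5.48 to 12.1) of Vsig4 KO and 7.14% (4.29 to 11.1) of WT CD4 T cells held an Egr1 UMI, with overlapping intervals. Before thinning, 15 Vsig4 KO cells held 70.5% of the CD4 T Egr1 UMIs and 13 WT cells 55.0%. In CD8 T cells Egr1 was at 67.1 and 44.4 CPM (1.51, 1.17 to 1.96) and in NK cells at 62.0 and 42.4 CPM (1.46, 1.01 to 2.12). In B cells its level was lower, at 223 and 269 CPM (0.830, 0.766 to 0.899). The thinned shares of B cells with an Egr1 UMI overlapped, at 9.61% (8.27 to 11.1) and 10.9% (9.36 to 12.5). Mature dendritic cells held 5 Egr1 UMIs in Vsig4 KO and 23 in WT (0.237, 0.0704 to 0.638), and 15 of the 23 came from 1 cell. In cDC1 cells the ratio was 2.35, where 1 Vsig4 KO cell held 36 of 69 UMIs and 1 WT cell 17 of 43. Before thinning 34.0% of Vsig4 KO and 14.3% of WT cDC1 cells held an Egr1 UMI. After thinning only 1 Vsig4 KO and 2 WT cells did, so the thinned ratio of 0.210 rests on few cells.

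Egr2 and Egr3, which restrain T cell activation, gave few UMIs in most gates. Egr2 in CD4 T cells had 43 UMIs in Vsig4 KO and 9 in WT (3.74, 1.80 to 8.73), and Egr3 had 14 and 2, below the minimum. In NKT cells Egr2 had 15 and 3 UMIs and Egr3 13 and 4, also too few for a ratio. Egr3 in B cells was at 63.8 CPM in Vsig4 KO and 142 CPM in WT B cells (0.450, 0.395 to 0.513), and across all alternative settings the ratio lay between 0.435 and 0.455. After thinning 4.95% (3.98 to 6.08) of Vsig4 KO and 9.52% (8.11 to 11.1) of WT B cells held an Egr3 UMI. In WT the second gate, cDC1, had 19.8 CPM, far below B cells, whereas in Vsig4 KO the cDC1 level of 52.9 CPM overlapped that of B cells. Egr2 in B cells was lower too, with 41 and 60 UMIs (0.525, 0.344 to 0.794).

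**Figure D2:**
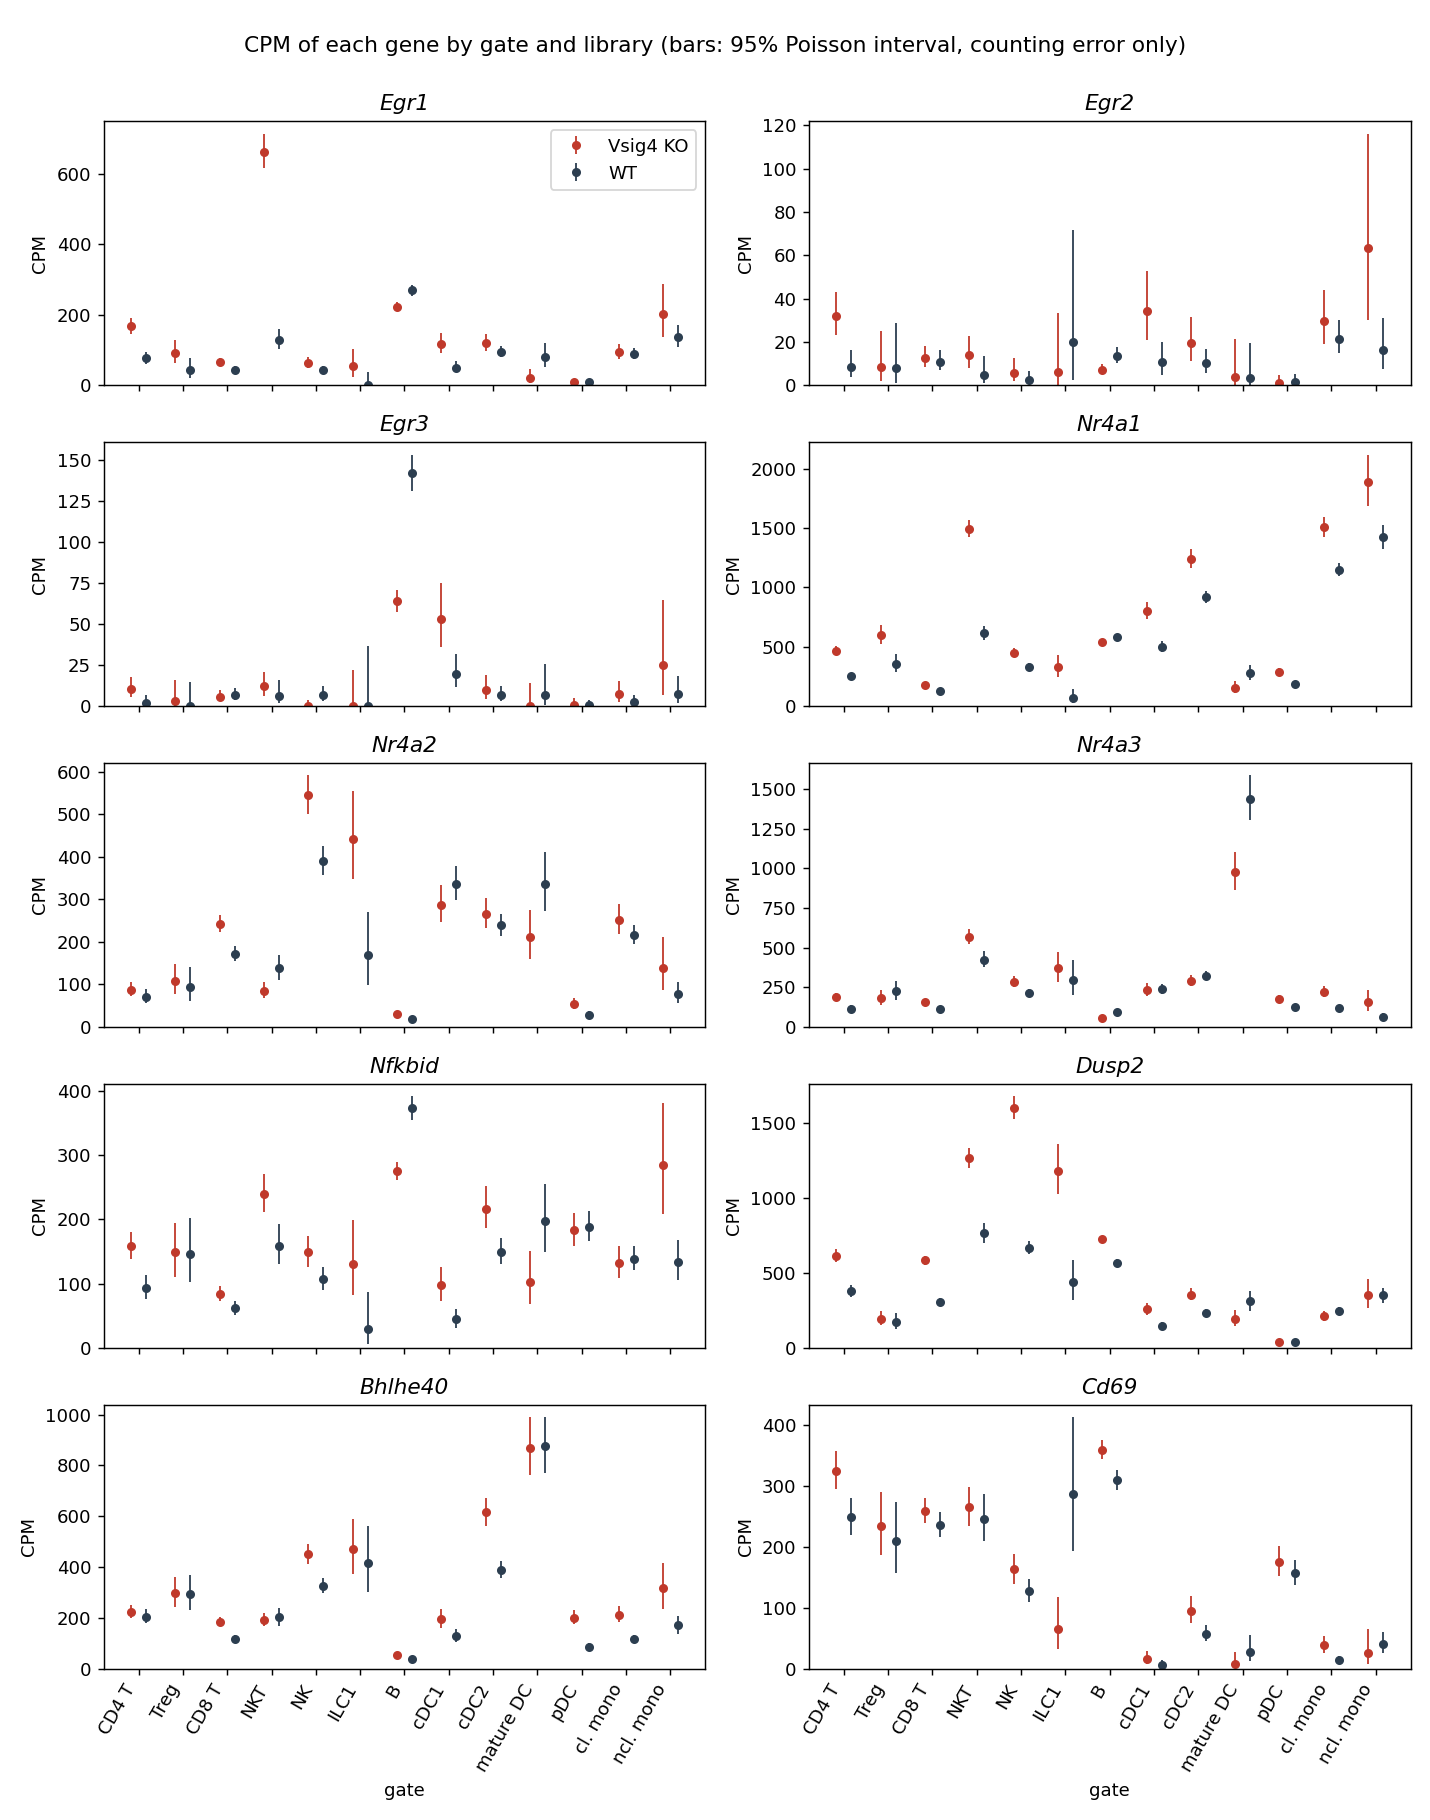
Level of each of the 10 genes in CPM (linear axes from 0) in the 13 gates, Vsig4 KO left of WT, with bars of the exact Poisson 95% interval. Egr1 in Vsig4 KO NKT cells reaches 662 CPM against 128 CPM in WT, Egr3 is highest in B cells, Nr4a1 in monocytes, Nr4a3 and Bhlhe40 in mature DC, and Nr4a2 in NK cells.

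The NR4A genes were highest in different gates. Nr4a1 was highest in non-classical monocytes, the patrolling cells that need it, at 1892 CPM (1683 to 2119) in Vsig4 KO and 1423 CPM (1325 to 1526) in WT, followed by classical monocytes at 1507 and 1149 CPM. Nr4a3 was highest in mature dendritic cells, at 977 CPM in Vsig4 KO and 1440.2 CPM in WT, with NKT cells next at 569 and 425 CPM. Nr4a2 was highest in NK cells, at 545 and 390.0 CPM, and lowest in B cells, at 30.9 and 18.5 CPM, the gate where Egr3 was highest. The top gates for Nr4a1 and Nr4a3 did not overlap the next ones within either library, and for Nr4a2 the ILC1 gate in Vsig4 KO (442 CPM) and cDC1 in WT (337 CPM) overlapped NK cells.

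Between genotypes Nr4a1 had an interval above 1 in 9 of the 11 gates, namely the 5 T, NKT and NK gates, cDC1 (1.60), cDC2 (1.35), pDC (1.53) and classical monocytes (1.31). In NKT cells it was at 1493 CPM in Vsig4 KO and 615 CPM in WT (2.43, 2.18 to 2.71), and after thinning 49.6% (43.2 to 56.0) and 21.9% (15.9 to 28.9) of NKT cells held a UMI of it. In pDC those shares were 13.9% and 9.32%. In CD4 T cells Nr4a1 was at 467 and 249.9 CPM (1.87, 1.61 to 2.17), in regulatory T cells at 600.4 and 356 CPM (1.69, 1.31 to 2.18), in CD8 T cells at 180.3 and 126 CPM (1.43, 1.22 to 1.66) and in NK cells at 451 and 329 CPM (1.37, 1.20 to 1.56). In the regulatory T gate the myeloid genes summed to 149 CPM in Vsig4 KO and 1040.3 CPM in WT and the B cell genes to 237 and 435 CPM, and their part in the values of that gate was not tested. B cells were at 544 and 584 CPM (0.931, 0.883 to 0.981), and with all marker thresholds raised by 1 UMI the ratio was 1.02. The thinned share of B cells with a Nr4a1 UMI ran the other way, at 32.4% (30.2 to 34.6) in Vsig4 KO and 26.4% (24.2 to 28.6) in WT, so no direction is read from the B cell level. In mature dendritic cells it was at 153 and 281 CPM (0.546, 0.364 to 0.807), where 1 WT cell held 29 of 80 UMIs.

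Nr4a3 was higher in CD4 T cells (187 CPM in Vsig4 KO and 114 in WT; 1.65, 1.32 to 2.07) and in classical monocytes (221 and 118 CPM; 1.88, 1.53 to 2.32). The thinned shares of CD4 T cells with a Nr4a3 UMI overlapped, at 10.7% (7.44 to 14.8) and 9.92% (6.52 to 14.3). In B cells Nr4a3 was lower, at 55.6 and 97.2 CPM (0.572, 0.493 to 0.663). The NKT ratio was 1.34 (1.16 to 1.55), and 1 WT NKT cell alone held 56 of the 278 WT UMIs. Nr4a2 differed in both directions. In NK and CD8 T cells it was modestly higher (1.40, 1.24 to 1.58, and 1.41, 1.24 to 1.61), and in NKT cells lower, at 85.2 and 138 CPM (0.619, 0.458 to 0.838). That NKT value depended on the gate: in T cells with Klrb1c and Cxcr6 UMIs, chosen without Zbtb16, Nr4a2 was higher (2.69, 1.54 to 4.99). There 5 NK cell genes summed to 860.2 CPM in Vsig4 KO and 806 CPM in WT, against 261 and 362 CPM in the NKT gate. The part of that RNA in the Nr4a2 value was not tested. Within the NKT gate, Nr4a2 was at 0.373 (0.193 to 0.699) in cells with a Klrb1c UMI and 0.712 (0.500 to 1.02) in those without. Over the whole B gate Nr4a2 was at 30.9 and 18.5 CPM (1.67, 1.28 to 2.20), opposite to Egr3 and Nr4a3 there. The thinned shares of B cells with a Nr4a2 UMI overlapped, at 2.19% (1.55 to 2.99) and 1.52% (0.978 to 2.26). In the Vpreb3-positive B cells described below the Nr4a2 ratio was 0.698 (0.409 to 1.20).

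Dusp2, the nuclear MAP kinase phosphatase, had its highest ratio among the 11 gates in NK cells. In Vsig4 KO it was at 1599 CPM (1524 to 1678), against 666 CPM (623 to 711) in WT, and the ratio was 2.40 (2.21 to 2.61). After thinning 69.8% (64.0 to 75.1) of Vsig4 KO and 41.4% (36.6 to 46.3) of WT NK cells held a Dusp2 UMI, against 4.43% and 5.08% of pDC. The other 7 measured genes of NK cells had ratios of 1.28 to 1.46. It was at 584 and 307 CPM in CD8 T cells (1.90, 1.74 to 2.09), 1267 and 763 CPM in NKT cells (1.66, 1.5 to 1.84) and 612 and 379 CPM in CD4 T cells (1.62, 1.43 to 1.83). B cells gave 724 and 566 CPM (1.28, 1.22 to 1.35), and pDC and classical monocytes gave intervals that spanned 1. A single WT cell in the NK gate held 3319 erythroid UMIs, of 1366586 UMIs in that gate, and a single WT cell in the B gate held 1141 of 4382785.

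Nfkbid, the nuclear IκB protein IκBNS, was highest by gate in non-classical monocytes in Vsig4 KO (285 CPM from 28 cells) and in B cells in WT. B cells had 276 CPM in Vsig4 KO and 373 CPM in WT (0.739, 0.689 to 0.793). The thinned shares of B cells with a Nfkbid UMI overlapped, at 21.5% (19.6 to 23.5) and 24.2% (22.1 to 26.4). Nfkbid was higher in Vsig4 KO CD4 T cells (158 and 93.5 CPM; 1.69, 1.33 to 2.17) and NKT cells (239 and 159 CPM; 1.5, 1.19 to 1.91), and the NKT ratio was 2.89 after thinning. In CD4 T cells its thinned shares overlapped, at 13.4% (9.73 to 17.8) and 10.7% (7.18 to 15.2). Mature dendritic cells had 27 UMIs in Vsig4 KO and 56 in WT (0.526, 0.320 to 0.847).

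Bhlhe40 had an interval above 1 in 7 of the 11 gates, with its highest ratios in pDC, classical monocytes, CD8 T cells and cDC2. By gate it was highest in mature dendritic cells, at 870.1 CPM in Vsig4 KO and 875 CPM in WT (0.995, 0.827 to 1.20), the only gene of the 7 measured there with a ratio near 1. It was higher in pDC (201 and 85.8 CPM; 2.35, 1.88 to 2.95), although 1 Vsig4 KO pDC held 25 of 233 UMIs and the ratio was 1.56 after thinning. In classical monocytes it was at 213 and 116 CPM (1.84, 1.49 to 2.27), in cDC2 at 615 and 389 CPM (1.58, 1.40 to 1.78) and in CD8 T cells at 184 and 116 CPM (1.59, 1.36 to 1.86). The lowest CD8 T ratio over the alternatives was 1.14, and 1 Vsig4 KO CD8 T cell held 45 of 453 UMIs. Thinned CD8 T shares overlapped, at 8.82% (6.35 to 11.9) and 7.38% (5.14 to 10.2). Bhlhe40 was also higher in NK cells (1.38, 1.21 to 1.58) and in cDC1 (1.51, 1.15 to 1.97), where 1 Vsig4 KO cell held 34 of 114 UMIs. In CD4 T and NKT cells its intervals spanned 1 (ratios 1.09 and 0.95). In B cells it was at 52.9 and 38.6 CPM (1.37, 1.13 to 1.67), and the ratio was 2.40 after thinning. Cd69 was highest in B cells, at 359.7 and 309.6 CPM, and its ratio lay between 1.08 and 1.3 in the CD4 T, regulatory T, CD8 T, NKT, NK, B and pDC gates. Its higher ratios in cDC2 (1.66) and classical monocytes (2.74) came from 79 and 32 Vsig4 KO UMIs and 85 and 22 WT UMIs. After thinning the ratios were 0.535 and 0, from 3 Vsig4 KO and 10 WT cells in cDC2 and 0 and 4 in classical monocytes.

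The NKT gate was split by Klrb1c (NK1.1), a division made after the data had been seen. Cells with a Klrb1c UMI (98 Vsig4 KO and 74 WT) had Egr1 at 712 and 86.9 CPM (8.20, 5.45 to 12.9) and Nr4a1 at 1597 and 351 CPM (4.55, 3.69 to 5.66). Cells without it (154 and 99) had Egr1 at 629 and 161 CPM (3.90, 2.96 to 5.22) and Nr4a1 at 1422 and 822 CPM (1.73, 1.52 to 1.98). Nr4a3 was higher in the first (2.64, 2.0 to 3.51) and level in the second (0.947, 0.797 to 1.13). In the Klrb1c and Cxcr6 T cells chosen without Zbtb16 (95 and 69 cells), Egr1 was at 263 and 49.7 CPM (5.29, 3.02 to 9.99) and Nr4a1 at 1037 and 199 CPM (5.21, 3.94 to 7.02). Gamma-delta T cells, gated by Trdc after the data had been seen (60 and 89 cells), had Nr4a1 at 626 and 279.9 CPM (2.24, 1.74 to 2.88) and Dusp2 at 688 and 291 CPM (2.37, 1.86 to 3.03). The 8 myeloid genes summed to 801 CPM in Vsig4 KO and 248 CPM in WT in these cells, and their part in the values was not tested.

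B cells were split by maturity. In Vpreb3-positive cells without Fcer2a UMIs (416 Vsig4 KO and 326 WT cells) 0 of 9 measured genes were higher and 4 lower (11% and 8.03%). Egr3 was at 28.5 and 129 CPM (0.220, 0.150 to 0.318), Nr4a3 at 32.0 and 105 CPM (0.306, 0.210 to 0.442) and Nr4a1 at 304 and 531 CPM (0.573, 0.501 to 0.654). The thinned share of these cells with a Nr4a1 UMI was not lower, at 24.2% (20.1 to 28.7) and 21.3% (17 to 26.2), with overlapping intervals. The 5% of these cells with most UMIs of the 10 genes held 25.6% of those UMIs in Vsig4 KO and 38.0% in WT. In Fcer2a (CD23) cells (877 and 770) 2 of 10 were higher and 2 lower (6.98% and 5.15%): Egr3 was at 87.0 and 172 CPM (0.505, 0.429 to 0.595), while Nr4a1 was level at 646 and 637 CPM (1.01, 0.946 to 1.09) and Nr4a2 at 31.9 and 13.7 CPM (2.32, 1.52 to 3.63). Bhlhe40 in the Fcer2a cells was at 57.9 and 32.5 CPM (1.78, 1.34 to 2.39). In the Vpreb3-positive cells Nr4a2 (0.698, 0.409 to 1.20) and Bhlhe40 (0.710, 0.475 to 1.07) had intervals that spanned 1. The difference between these B cell gates was not tested. Heat-shock genes, which report tissue digestion as well as stress, were lower in Vsig4 KO B cells (12 genes summed to 7106 and 9587 CPM; median log2 ratio -0.50). Their median was also below 0 in pDC (-0.73), cDC2 (-0.45), regulatory T (-0.43), CD4 T (-0.37), classical monocyte (-0.34), NK (-0.20) and CD8 T (-0.18) gates, where most of the 10 genes were higher. It was near 0 in NKT cells (9597 and 9635 CPM; -0.00) and cDC1 (0.08), and 0.29 in mature dendritic cells. Their part in the values of the 10 genes was not tested.

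ILC1 and non-classical monocytes had too few cells in 1 library for a summary. The ILC1 gate held 40 Vsig4 KO and 23 WT cells, with 55 and 7 Nr4a1 UMIs, 198 and 44 Dusp2 UMIs (1182 and 436 CPM) and 11 and 29 Cd69 UMIs (65.7 and 287 CPM), 15 of the 29 from 1 cell. In a wider ILC1 gate set after the data had been seen (46 and 39 cells) Dusp2 was at 1287 and 375 CPM (3.43, 2.61 to 4.56), Nr4a1 at 475 and 229.5 CPM (2.07, 1.42 to 3.07) and Cd69 at 76.6 and 252 CPM (0.304, 0.157 to 0.556). That wider gate held 7 T cell genes at 623 CPM in Vsig4 KO and 453 CPM in WT. The 8 myeloid genes summed to 643 and 879 CPM there, and the part of such RNA in the values was not tested. The non-classical gate held 28 and 107 cells, and Bhlhe40 was at 316 and 170.1 CPM there.

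Larger shares of Vsig4 KO than WT cells carried several of the genes at once in the NKT, NK, cDC2 and CD8 T gates. With every cell thinned to 1000 UMIs, 44.7% (38.4 to 51.2) of Vsig4 KO and 20.7% (14.9 to 27.6) of WT NKT cells held UMIs of at least 3 of the 10 genes. Without thinning the shares were 76.6% and 55.5%. The thinned shares were 36.3% and 23.4% in NK cells, 40.7% and 21.2% in cDC2, 15.2% and 7.16% in CD8 T cells and 16.7% and 11.9% in CD4 T cells, where the intervals overlapped. The B cell intervals overlapped at 3 genes (18.7%, 16.9 to 20.6, and 17.6%, 15.7 to 19.5), but at 5 or more genes the order turned: 39 of 1737 Vsig4 KO (2.25%, 1.60 to 3.06) and 68 of 1576 WT cells (4.31%, 3.37 to 5.44).

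**Figure D3:**
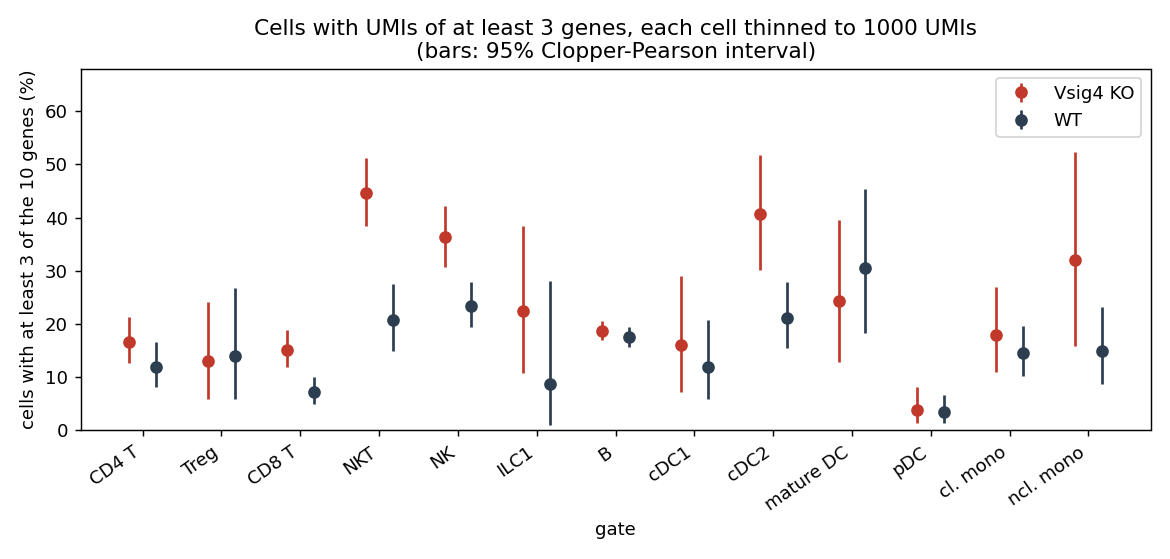
Share of cells (%) with UMIs of at least 3 of the 10 genes after each cell was thinned to 1000 UMIs, by gate, Vsig4 KO left of WT, with bars of the Clopper-Pearson 95% interval. NKT cells show 44.7% against 20.7%, B cells 18.7% against 17.6%, and the mature DC intervals overlap.

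Many pairs of the genes were found in the same cells more often than the product of their shares gives, and some less often. The pair farthest above it in B cells was Egr1 with Egr3, found in 26 Vsig4 KO cells where the product gives 8.27 (3.14 times) and in 61 WT cells where it gives 16.3 (3.75 times). In NKT cells Nr4a1 and Nr4a3 were together in 64 Vsig4 KO cells (product 42.2) and 18 WT cells (product 7.88). Among pairs with a product of at least 5 cells, 23 of 23 Vsig4 KO and 10 of 13 WT pairs were above the product in NKT cells, and 28 of 30 and 28 of 29 in B cells. The tallies were 15 of 16 and 6 of 9 in CD4 T, 19 of 19 and 9 of 11 in CD8 T, 18 of 21 and 17 of 21 in NK, 9 of 13 and 9 of 12 in cDC2 cells, and 3 of 5 and 7 of 7 in classical monocytes. The lowest pairs reached 0.298 and 0.358 times the product in NK cells and 0.172 times in WT B cells. The counts are sparse and no test was made.

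Other genes of the same response had medians nearer to 0 in the CD4 T, CD8 T, NKT and NK gates. The 10 genes were chosen in part by their ratios in these libraries, so a larger median for them was partly set by that choice. Of 30 other early response genes (AP-1, Klf, Dusp, Zfp36 and NF-κB feedback genes), 28 were measured in NKT cells, where 8 were at least 1.5-fold higher and 2 lower, with a median log2 ratio of 0.19. The highest there were Btg2, an antiproliferative gene, at 2091 CPM in Vsig4 KO (2.57, 2.34 to 2.83) and Dusp5, an ERK phosphatase, at 824 CPM (1.87, 1.64 to 2.14), while Jun was lower (0.861, 0.768 to 0.966). In CD4 T cells 2 of 28 were higher and 1 lower (0.16), in CD8 T cells 6 of 29 and 1 (0.15), in NK cells 6 of 27 and 1 (0.28) and in B cells 2 of 29 and 1 (0.12). Jun was lower in CD8 T (0.718), B (0.721), pDC (0.428), cDC2 (0.685) and classical monocyte (0.590) gates, a direction unlike that of most of the 10 genes in all of these but the B gate. In mature dendritic cells 0 of 25 were higher and 2 lower (-0.15). Regulatory T cells had 10 of 25 higher and 0 lower, with a median of 0.25, above the 0.17 of the 10 genes. In cDC1 11 of 26 were higher and 1 lower (0.46, against 0.80 for the 10 genes).

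Of 22 slower genes induced by antigen receptors, such as cytokines and costimulatory receptors, 21 were measured in CD4 T cells, where 0 were higher and 4 lower (median 0.01). Among them Il2, the T cell growth factor, was at 20.2 CPM in Vsig4 KO and 42.0 CPM in WT (0.480, 0.286 to 0.793), and the chemokine Ccl4 at 23.9 and 81.1 CPM (0.295, 0.190 to 0.447). In the same gate 5 NK cell genes summed to 11.9 CPM in Vsig4 KO and 38.2 CPM in WT and the myeloid genes to 127 and 233 CPM, and their part in the Ccl4 value was not tested. The costimulatory receptor Icos was at 436 and 308 CPM (1.42, 1.23 to 1.63). In NKT cells 0 of 17 were higher and 1 lower (median 0.11), the chemokine Xcl1 at 313 and 561 CPM (0.558, 0.480 to 0.649). In B cells, where Egr3 and Nr4a3 were lower, the chemokines Ccl3 (54.5 and 9.58 CPM; 5.69, 4.11 to 8.05) and Ccl4 (121 and 58.6 CPM; 2.06, 1.78 to 2.39) were higher, the 2 of 13 measured genes that were, with 1 lower and a median of 0.02. In mature dendritic cells 3 of 10 were higher and 1 lower (median 0.41), among them Ccl4 at 1100.1 and 123 CPM (8.95, 6.29 to 13.1).

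**Figure D4:**
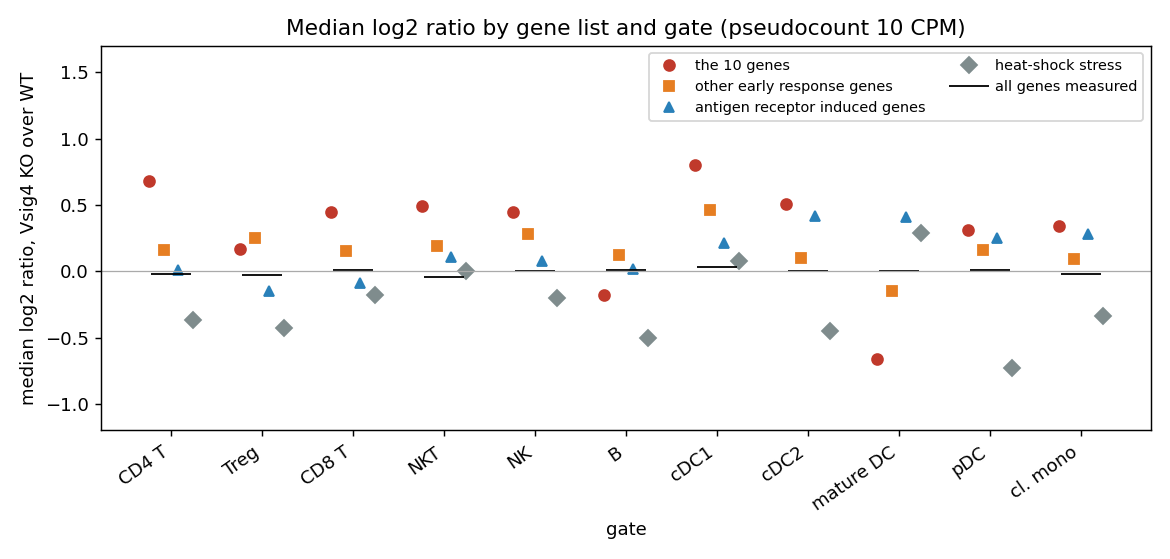
Median log2 ratio, Vsig4 KO over WT (pseudocount 10 CPM), of the 10 genes, the other early response genes, the genes induced by antigen receptors, the heat-shock genes and all measured genes in the 11 gates with at least 30 cells in each library. The 10 genes, chosen in part by such ratios in these libraries, lie above the other lists in CD4 T (0.68) and NKT cells (0.49). They lie below them in mature DC (-0.66).

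Over the 13 gates of both libraries (26 points), the genes whose levels were ordered most like a member, among 9512 genes with at least 200 UMIs, were partly other members. Egr1 was ordered most like Egr3 (Spearman's rho 0.77) and Nr4a1 (0.76). Nr4a1 was nearest to Tiparp (0.83), Dusp2 to Ddx58 (0.84), Bhlhe40 to Plscr1 (0.84), Cd69 to Tgfbr2 (0.90), Nr4a3 to Emd (0.81), Nr4a2 to Olfm1 (0.79), Nfkbid to Spns2 (0.76) and Egr2 to Soat1 (0.71). Among the members themselves Nr4a3 and Bhlhe40 were ordered alike (0.71), and Nr4a2 and Cd69 oppositely (-0.55). Points of one library share depth and preparation, so these values describe the pattern over gates.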

How the data were processed

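The authors deposited raw UMI counts by gene and cell barcode, as whole numbers made with Cell Ranger 7.1.0 on mm10, per the submitters' processing notes. A barcode was kept with 200 or more genes, 500 or more UMIs and no more than 10% mitochondrial UMIs. Doublets were scored with scrublet in scanpy 1.11.5. Its own threshold marked 0.0174% of Vsig4 KO and 0 WT barcodes, so it had not worked, and the highest scores were removed at 0.8% per 1000 barcodes (264 Vsig4 KO and 378 WT barcodes). Cells were gated by raw UMIs of marker genes, and 11 Vsig4 KO and 12 WT cells in more than 1 gate were left out. UMIs were summed per gate and library and divided by the gate's total to give CPM. Ratios carry exact conditional binomial, CPM exact Poisson and shares Clopper-Pearson 95% intervals, from scipy 1.17.1 and numpy 2.4.6. Intervals cover counting error only. Log2 ratios used a pseudocount of 10 CPM. The interval code was tested on simulated data. For shares each cell was thinned to 1000 UMIs, and shallower cells were left out (6 Vsig4 KO and 4 WT cells in the NKT gate, 19 and 14 in the B gate).

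The members and all lists were chosen with earlier results of these data known. All 10 genes were described in every main gate. Of the other lists, counts past 1.5-fold were taken with up to 4 genes farthest from 1 in each direction with at least 50 UMIs, and those named in the text were picked among these after their values were seen. The alternatives were no doublet removal, at most 5% mitochondrial UMIs, marker thresholds raised by 1 UMI, scaling by median of ratios, the mean of per-cell CPM, thinned counts, other pseudocounts and UMI minimums and, added after the data had been seen, other gates and leaving out shared barcodes. Gene positions came from GENCODE M21 and promoters from RefSeq. A division of the CD4 and CD8 T gates into subsets is not reported here.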

Additional observations from a re-analysis of the deposited data

Results flagged for a closer look

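Members whose counting intervals lay above 1 in a gate and below 1 in another are given here with the highest and the lowest ratio, Vsig4 KO over WT. Egr1 was at 5.16 in NKT cells and 0.237 in mature dendritic cells, and Nr4a1 at 2.43 and 0.546 in the same gates. Nfkbid was at 2.20 in cDC1 and 0.526 in mature dendritic cells, and Dusp2 at 2.40 in NK and 0.620 in mature dendritic cells. Egr2 was at 3.74 in CD4 T and 0.525 in B cells, Egr3 at 2.67 in cDC1 and 0.450 in B cells, and Nr4a3 at 1.88 in classical monocytes and 0.572 in B cells. Nr4a2 was at 1.89 in pDC and 0.619 in NKT cells. Several of these values moved with the processing. Thinned to 1000 UMIs per cell, Egr3 in cDC1 was at 0, found in 0 Vsig4 KO cells and 1 WT cell. Over the alternatives the mature dendritic cell ratios ran between 0 and 0.637 for Egr1 and between 0.311 and 0.891 for Nr4a1. With 1 library per genotype the difference between the gates was not tested in any of these.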

How the results depend on the processing

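No paired analysis was possible because each genotype was 1 library, and for the same reason no replicate could be left out. Over the alternatives, 154 of 176 counts of members past 1.5-fold, 94 of 99 medians and 606 of 665 single ratios were classed as the same as the main value. Another 22 counts, 4 medians and 53 single ratios moved, and 1 median and 6 single ratios reversed. Median-of-ratios scaling shifted log2 ratios by -0.08 to 0.09. With no doublet removal, 0 members were lower in NKT and 0 higher in B cells. With marker thresholds raised by 1 UMI, 1 was lower in CD8 T, 0 lower in NKT, 2 higher in NK, 3 lower in mature dendritic cells and 1 higher in pDC. By the mean of per-cell CPM, 6 were higher in CD8 T, 2 in B and 4 in cDC1, and in pDC 1 was higher and 1 lower; the median log2 ratio was 0.41 in cDC1 and 0.51 in classical monocytes. With a minimum of 50 UMIs, 1 was higher in regulatory T cells, since fewer genes were counted. Thinned to 1000 UMIs per cell, 1 was higher in regulatory T, 2 in NK, 2 in B, 1 in pDC, and in cDC1 1 was higher and 1 lower. Thinning also left 0 lower in mature dendritic cells and, in classical monocytes, 1 higher and 2 lower. Thinned counts and medians cover only the genes that still reached the UMI minimum. The thinned medians were -0.06 in B, 0.22 in cDC1 and 0.03 in mature dendritic cells, the last reversed. Thinning also reversed Egr1 (0.210), Egr2 (0.840) and Egr3 (0) in cDC1, Cd69 in cDC2 (0.535) and in classical monocytes (0), and Nr4a2 in mature dendritic cells (1.02). These reversed ratios came from few cells, given here as Vsig4 KO and WT cells with a UMI. In cDC1 they were 1 and 2 for Egr1, 1 and 1 for Egr2, and 0 and 1 for Egr3. For Cd69 they were 3 and 10 in cDC2 and 0 and 4 in classical monocytes, and for Nr4a2 11 and 11. Apart from the UMI minimum, the cause was not tested. Depth limited Egr2 and Egr3 most: they reached 20 UMIs in 6 and 3 of the 11 gates.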
